A study of Canis lupus familiaris with 6 samples.

Results

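Clones of MDCK cells that lack PRL2 and carry 1 intact PRL1 allele were compared with wild-type MDCK cells over both siRNA treatments. MDCK is an epithelial line from dog kidney. All 6 libraries of the series entered the comparison: 4 of the clones (genotype PRL2-/-; PRL1+/-, clone 1 and clone 2, each with control siRNA and with PRL1 siRNA) against 2 of wild type (1 with each siRNA), with the siRNA as a covariate. RNA was taken 18 h after the second of 2 transfections, and both genotypes went through that transfection. The 2 libraries of a line share that line, so the genotype rests on 2 clones against 1 wild-type line. The labels leave out how the alleles were altered, whether the wild-type cells were a clone, or whether libraries came from separate cultures. What the genotype does and what set the wild-type line apart from both clones for other reasons cannot be told apart, and p-values measure the spread among these libraries.

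PRL phosphatases, encoded by PTP4A1 (PRL1), PTP4A2 (PRL2) and PTP4A3 (PRL3), are small prenylated enzymes at the cell membrane that bind the CNNM magnesium transporters and restrain the removal of magnesium from the cell. MDCK cells form a polarised monolayer with tight junctions, an apical cilium and transport proteins of the distal nephron. The study's title concerns a fall in cellular magnesium and a death of cells that needs NF-κB. The comparison over both siRNAs asks which transcripts set the mutant lines apart from wild type whether or not PRL1 was depleted.

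Values are FPKM, fragments counted on a transcript relative to its length and to all mapped fragments, which can be compared between genes because they are per length. Between 22961 and 23964 of 41401 symbols were above 0 in a library. The number of fragments is unknown. Relative depth, read from low values, ran from 0.766 (clone 1, PRL1 siRNA) to 1 (wild type, control siRNA, the reference). Differences below are on the log2(FPKM + 1) scale, which understates changes of low genes. A gene is called higher or lower where limma gave an adjusted p under 0.05 (Benjamini-Hochberg over the 12125 genes averaging 1 FPKM or more). In pairs of values the control siRNA comes first and PRL1 siRNA second. Values in brackets after a gene are its log2 difference, clones minus wild type, ± SE (n = 4 libraries against 2), with the limma adjusted p.

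Of 12125 genes tested, 653 were higher in the clones (5.39%) and 287 were lower (2.37%), 940 in all (7.75%). Most of these differences were small: the median absolute log2 difference was 0.43 among the called genes and 0.13 over all genes. In the fit 44 genes were higher and 43 lower by at least 2-fold. In 822 of the 940 the 4 clone libraries lay entirely above or entirely below both wild-type libraries, as did 3407 of all 12125 genes (28.1%). The fit on these same libraries favours genes that separate by genotype. The larger share among the called genes therefore largely follows from the selection and lends the calls no support. The 940 calls treat libraries of 1 line as independent: with the line as a random block (replicate block) the count was 16. With 1 mean per line it was 0 (lowest limma adjusted p = 0.496, while 1174 genes had an unadjusted p under 0.05). It was also 0 by limma without the wild-type control library or without the wild-type PRL1 siRNA library (1793 and 1632 genes at an unadjusted p under 0.05). Without 1 of the clone libraries it was 181 (clone 1, control), 21 (clone 1, PRL1 siRNA), 22 (clone 2, control) and 51 (clone 2, PRL1 siRNA). An exact permutation test of 4 libraries against 2 cannot go below 0.0667 and was not used.

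**Figure D1:**
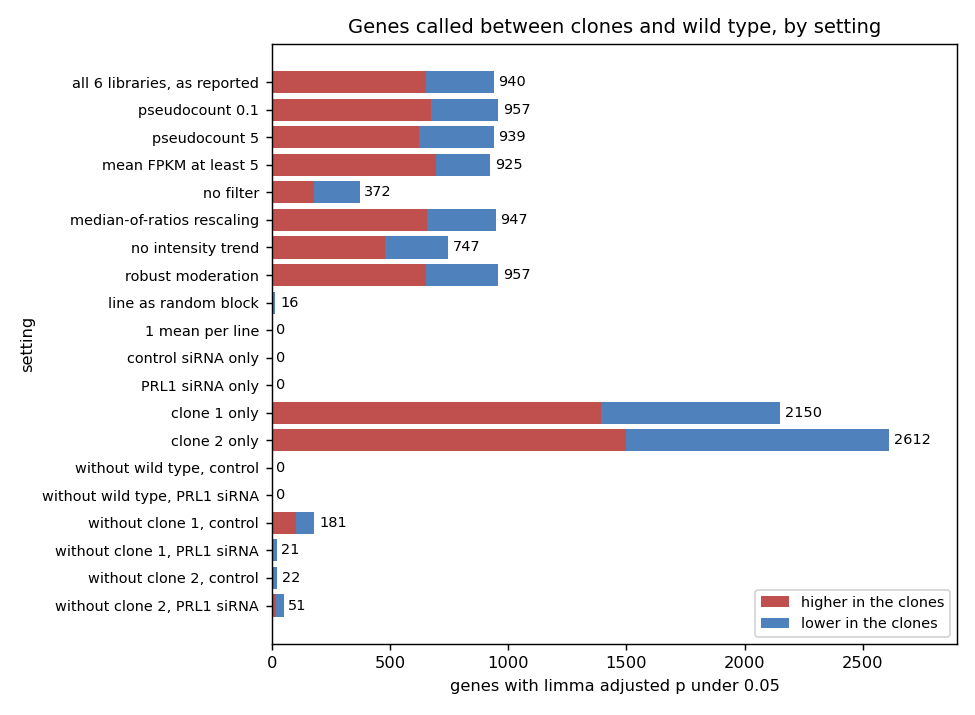
Number of genes with a limma adjusted p under 0.05 between clones and wild type (horizontal axis) in the reported fit and under each alternative (vertical axis); red marks genes higher in the clones and blue genes lower. The count is 940 with all 6 libraries, 16 with the line as a random block and 0 without either wild-type library.

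Each clone library was next set against the wild-type library of the same siRNA, which gives 4 differences per gene. The 2 differences under 1 siRNA share their wild-type library. In 53 genes (0.437%) all 4 differences had 1 sign and were at least 2-fold, 26 higher in the clones (0.214%) and 27 lower (0.223%). The fit called 22 of the 26 and 21 of the 27, and 8 of the 53 are unnamed loci. Just inside the 2-fold threshold stood GRHL3, with a weakest difference of 1.01, and TFCP2L1, at 1.01. Just outside it stood MMP13, at 0.997, and CCL17, at 0.99. On the lower side KCNJ16 was just inside, at -1.01, and AGR2 just outside, at -0.997.

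**Figure D2:**
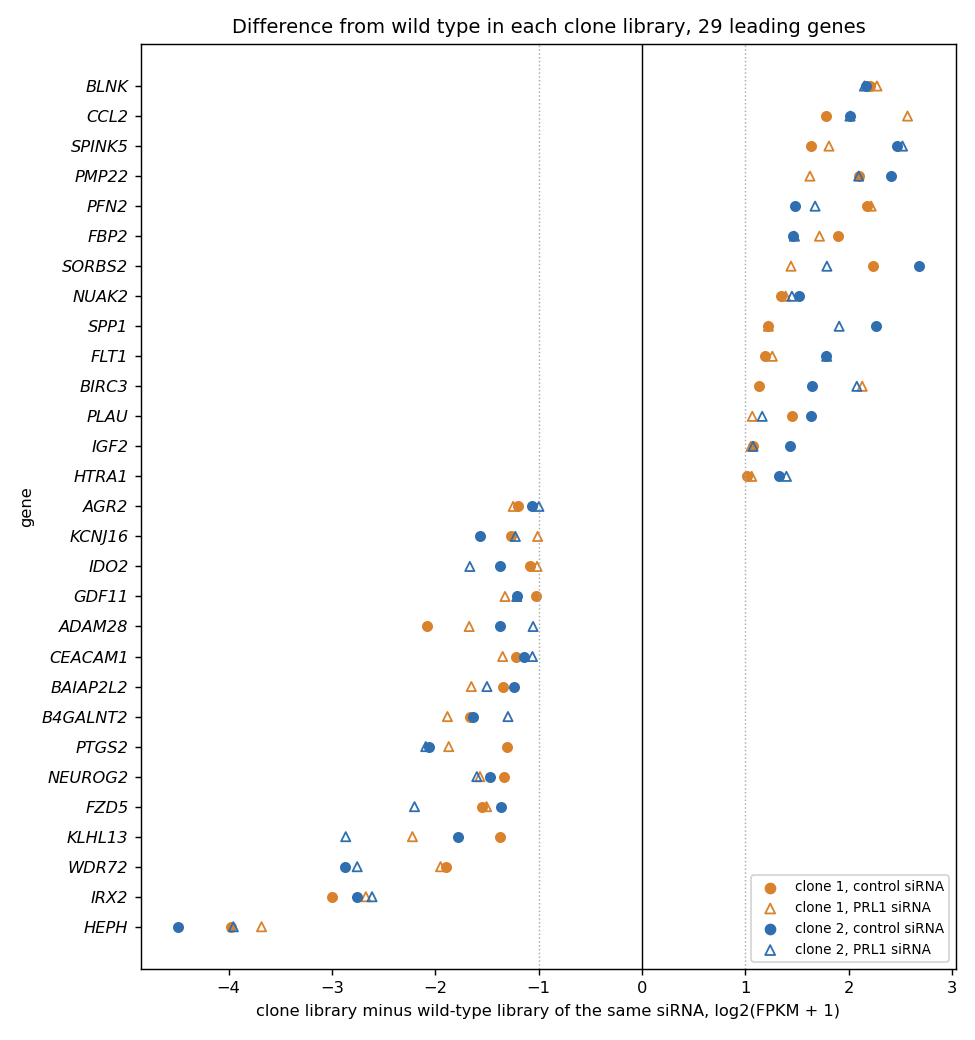
Difference of each clone library from the wild-type library of the same siRNA, in log2(FPKM + 1) units (horizontal axis), for 29 called genes, 14 higher and 15 lower, that lead by their weakest difference (vertical axis); circles are control siRNA, triangles PRL1 siRNA, orange clone 1 and blue clone 2, and dotted lines mark 2-fold. The choice of genes required 1 sign in all 4 differences, so all 4 points of a gene lie on 1 side of 0. The points run from -4.49 for HEPH to 2.68 for SORBS2.

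The leading genes of either direction were chosen for 1 sign in all 4 differences. That their libraries separate by genotype therefore largely follows from the choice. Secreted proteins among the leading genes higher in the clones come first. SPP1 encodes osteopontin, a secreted phosphoprotein that binds integrins and CD44. It stood at 2149 and 2682 FPKM in wild type against 5001 and 6263 in clone 1 and 10361 and 10069 in clone 2. It was the most abundant transcript of all 4 clone libraries, whereas LGALS3 (galectin-3) was the most abundant of both wild-type libraries at 4075 and 3858 FPKM. Every clone library exceeded both wild-type libraries for SPP1 (1.65 ± 0.34, limma adjusted p = 0.0496). This call ended with a pseudocount of 5 (limma adjusted p = 0.0505), without an intensity trend (0.0585), with robust moderation (0.0718) and with no filter (0.216), and over all alternatives run the limma adjusted p lay between 0.00178 (clone 1 only) and 0.521 (control siRNA only). LGALS3 itself was at 4259 and 3867 FPKM in clone 1 and 4014 and 3574 in clone 2. Its difference did not pass (-0.016 ± 0.062, limma adjusted p = 0.892).

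PLAU encodes urokinase, a secreted protease that activates plasminogen. It was at 11.4 and 8.65 FPKM in wild type against 32.9 and 19.2 in clone 1 and 37.6 and 20.6 in clone 2 (1.33 ± 0.12, limma adjusted p = 0.0155). The PRL1 siRNA library of each line was below the control library of that line, and the clone libraries stayed above both wild-type libraries. HTRA1, a secreted serine protease, was at 23.3 and 26.2 FPKM in wild type against 48.1 and 55.9 in clone 1 and 59.7 and 70.8 in clone 2. SPINK5, which encodes the protease inhibitor LEKTI, was at 1.46 and 1.52 FPKM in wild type against 6.62 and 7.84 in clone 1 and 12.6 and 13.5 in clone 2. Neither gene's ranges overlapped between genotypes. The chemokine gene CCL2, which draws monocytes, was at 14.8 and 42.6 FPKM in wild type against 53.3 and 258 in clone 1 and 62.6 and 175 in clone 2 (2.09 ± 0.19, limma adjusted p = 0.0155). Its value was higher in the PRL1 siRNA library of every line, and the clone control libraries exceeded even the wild-type PRL1 siRNA library. IGF2, an insulin-like growth factor, went from 2.33 and 3.76 FPKM in wild type to between 5.997 and 9.02 in the clones.

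BLNK had the largest weakest difference of the genes that were higher (2.15). It encodes an adaptor of B-cell receptor signalling. Its values were 2.103 and 1.82 FPKM in wild type against 13.4 and 12.7 in clone 1 and 12.9 and 11.6 in clone 2 (2.2 ± 0.061, limma adjusted p = 0.00167). They hardly differed between clones or siRNAs. NUAK2, a kinase related to AMPK, was at 25.7 and 23.0 FPKM in wild type against 66.8 and 62.0 in clone 1 and 75.3 and 64.7 in clone 2 (1.43 ± 0.063, limma adjusted p = 0.00599). BIRC3, which encodes cIAP2, a ubiquitin ligase of NF-κB and cell death signalling, was at 3.92 and 4.97 FPKM in wild type against 9.79 and 25.1 in clone 1 and 14.3 and 24.2 in clone 2 (1.75 ± 0.21, limma adjusted p = 0.0215). FLT1, a receptor for VEGF, was at 6.23 and 6.06 FPKM in wild type against 15.5 and 15.9 in clone 1 and 23.8 and 23.4 in clone 2. It was similar under both siRNAs in every line.

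Genes of membrane and cytoskeleton followed. PMP22, a tetraspan membrane protein, was at 1.62 and 1.92 FPKM in wild type against 10.2 and 8.002 in clone 1 and 12.9 and 11.5 in clone 2 (2.06 ± 0.18, limma adjusted p = 0.0155). The actin-binding protein gene PFN2 (profilin-2) was at 5.93 and 5.33 FPKM in wild type against 30.4 and 28.4 in clone 1 and 18.3 and 19.2 in clone 2. SORBS2, which encodes an adaptor of actin and cell adhesion, was at 9.75 and 7.46 FPKM in wild type against 49.6 and 21.98 in clone 1 and 67.8 and 28.2 in clone 2. In SORBS2 the PRL1 siRNA library of each line, wild type included, was below the control library of that line, and all 4 clone libraries exceeded both wild-type libraries. FBP2, a fructose-bisphosphatase of gluconeogenesis, was at 1.54 and 2.35 FPKM in wild type against 8.49 and 10.0 in clone 1 and 6.001 and 8.31 in clone 2. With the line as a random block, BLNK (limma adjusted p = 0.00309), NUAK2 (0.0111) and FBP2 (0.0450) still passed. The other 11 of the 14 leading higher genes named here did not (0.0513 for PMP22 to 0.101 for SPP1).

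**Figure D3:**
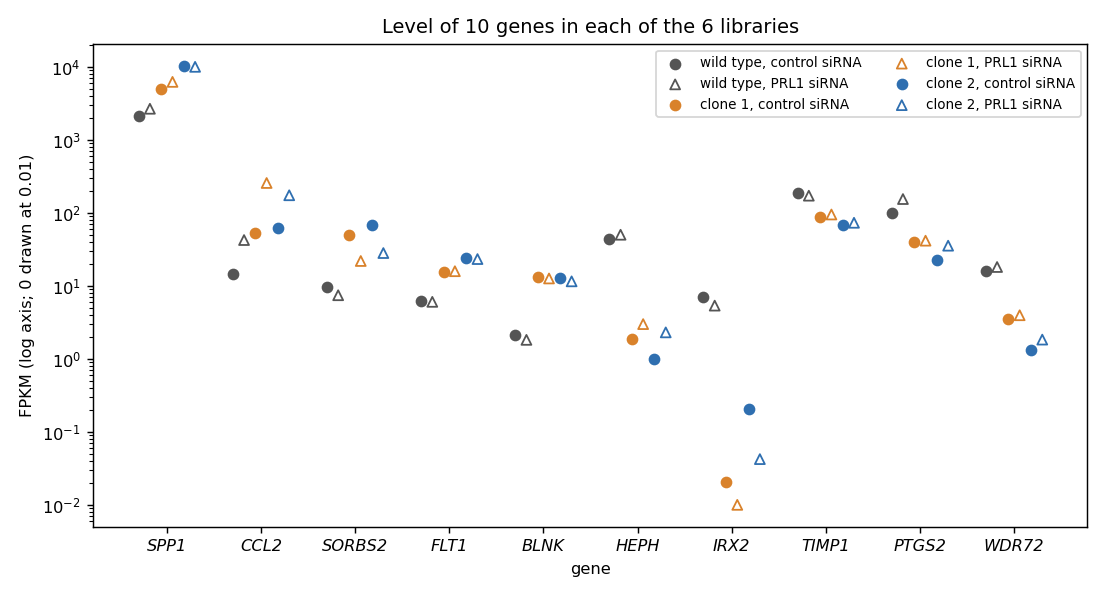
FPKM (log axis) of 10 genes in each library; grey is wild type, orange clone 1, blue clone 2, circles control siRNA and triangles PRL1 siRNA, and a value of 0 is drawn at 0.01. SPP1, CCL2, SORBS2, FLT1 and BLNK lie higher in all clone libraries than in both wild-type libraries, and HEPH, IRX2, TIMP1, PTGS2 and WDR72 lie lower.

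The largest difference of all called genes was that of HEPH, which encodes hephaestin, a membrane copper enzyme that oxidises iron as it leaves the cell. HEPH stood at 44.0 and 50.3 FPKM in wild type against 1.86 and 3.00 in clone 1 and 1.01 and 2.31 in clone 2 (-4.03 ± 0.19, limma adjusted p = 0.00599, and 0.0111 with the line as a random block). IRX2, a homeobox transcription factor of nephron patterning, was at 7.15 and 5.38 FPKM in wild type, was listed at 0.0207 and 0 in clone 1 and reached at most 0.206 in clone 2 (-2.76 ± 0.12, limma adjusted p = 0.00599). IRX2 averaged 6.26 FPKM in wild type and 0.067 in the clones. It reached the filter only through wild type, so it was tested only because of the group in which it was high. The proneural transcription factor gene NEUROG2 was at 14.4 and 22.05 FPKM in wild type against 5.09 and 6.77 in clone 1 and 4.54 and 6.61 in clone 2 (-1.49 ± 0.072, limma adjusted p = 0.00599). These 3 genes also passed with the line as a random block.

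Membrane transport and surface genes were among those lower in the clones. WDR72, a protein of vesicle traffic linked to renal acid handling, was at 15.9 and 18.2 FPKM in wild type against 3.53 and 3.97 in clone 1 and 1.31 and 1.84 in clone 2 (-2.37 ± 0.34, limma adjusted p = 0.0267). Clone 2 was below clone 1 under both siRNAs. KCNJ16, a basolateral potassium channel subunit of the nephron, was at 14.1 and 15.8 FPKM in wild type against 5.29 and 7.36 in clone 1 and 4.08 and 6.20 in clone 2 (-1.27 ± 0.13, limma adjusted p = 0.0176). CEACAM1, a cell adhesion molecule of the immunoglobulin superfamily with close relatives in the dog that could share fragments, was at 123 and 81.5 FPKM in wild type against 52.5 and 31.4 in clone 1 and 55.2 and 38.5 in clone 2 (-1.19 ± 0.089, limma adjusted p = 0.0155, and 0.0447 with the line as a random block). BAIAP2L2, an organiser of membrane protrusions, went from 6.61 and 7.81 FPKM in wild type to 1.99 and 1.80 in clone 1 and 2.22 and 2.11 in clone 2. B4GALNT2, a glycosyltransferase, was at 4.17 and 9.53 FPKM in wild type and at most 3.28 in a clone library, which is below the lower wild-type value.

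PTGS2 encodes cyclooxygenase-2, the inducible enzyme of prostaglandin synthesis. Its values were 99.2 and 155 FPKM in wild type against 39.5 and 41.7 in clone 1 and 23.0 and 35.6 in clone 2 (-1.83 ± 0.22, limma adjusted p = 0.0215). It was lower in the clones whereas CCL2 and BIRC3, which like PTGS2 are known NF-κB targets, were higher. IDO2, an enzyme of tryptophan breakdown, was at 71.1 and 74.5 FPKM in wild type against 33.1 and 36.3 in clone 1 and 26.8 and 22.8 in clone 2. FZD5, a WNT receptor, was at 19.8 and 20.5 FPKM in wild type against 6.12 and 6.59 in clone 1 and 7.06 and 3.68 in clone 2 (-1.66 ± 0.21, limma adjusted p = 0.0230). GDF11, a ligand of the TGF-beta family, was at 51.4 and 38.6 FPKM in wild type against 24.8 and 14.8 in clone 1 and 21.6 and 16.1 in clone 2. In both genes all clone libraries were below both wild-type libraries. The ubiquitin ligase adaptor gene KLHL13 rested on low values in the clones: it was at 2.98 and 12.2 FPKM in wild type and at 1.84 or less in every clone library. KLHL13 averaged 0.836 FPKM in the clones, so it too reached the filter only through wild type. ADAM28, a membrane metalloprotease, was at 7.70 and 10.3 FPKM in wild type against 1.06 and 2.55 in clone 1 and 2.36 and 4.45 in clone 2. AGR2, a disulfide isomerase of the endoplasmic reticulum in secretory epithelium, went from 4.5999 and 6.50 FPKM in wild type to at most 2.76 in a clone library. With the line as a random block, 11 of the 15 leading lower genes did not pass, PTGS2 and WDR72 among them (limma adjusted p from 0.0513 for BAIAP2L2 to 0.0995 for KLHL13).

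Of the 53 genes at least 2-fold apart in all 4 differences, 10 did not pass the fit. The 8 with a name are MFAP3L, IFNK and EDN1, which had higher values in the clones, and TSPAN8, GAS2, ACKR3, AQP3 and C4H10orf99, which had lower values. TSPAN8, a tetraspanin of epithelial cells, was at 50.3 and 63.2 FPKM in wild type against 4.01 and 6.05 in clone 1 and 15.1 and 20.2 in clone 2 (-2.45 ± 0.62, limma adjusted p = 0.0726). The water and glycerol channel gene AQP3 was at 30.9 and 63.1 FPKM in wild type against 14.6 and 18.6 in clone 1 and 6.76 and 8.74 in clone 2 (-1.88 ± 0.41, limma adjusted p = 0.0559). ACKR3, a scavenger receptor for CXCL12, was at 8.40 and 23.1 FPKM in wild type against 1.04 and 9.74 in clone 1 and 0.00999 and 0.0105 in clone 2. It was close to 0 in clone 2, and the clone 1 PRL1 siRNA library was above the wild-type control library. EDN1, the endothelin-1 gene, was at 3.04 and 1.32 FPKM in wild type against 9.07 and 3.73 in clone 1 and 20.02 and 6.34 in clone 2 (1.60 ± 0.35, limma adjusted p = 0.0571). These genes were chosen for mention after their values were seen.

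None of the PRL and CNNM transcripts passed the limma fit. PTP4A2 was at 72.7 and 59.0 FPKM in wild type against 80.4 and 69.1 in clone 1 and 56.7 and 48.3 in clone 2 (-0.067 ± 0.19, limma adjusted p = 0.854). It was above wild type in clone 1 and below it in clone 2 at each siRNA. PTP4A1 was at 63.5 and 33.1 FPKM in wild type against 61.7 and 37.8 in clone 1 and 69.9 and 37.8 in clone 2 (0.12 ± 0.069, limma adjusted p = 0.327). An altered allele can still be transcribed, so neither value checks the genotype labels. PTP4A3 and CNNM1 did not reach the filter. Of 21 measured genes of PRL phosphatases, CNNM and magnesium transport 0 passed the limma fit (7.75% of all genes did) and 5 had an unadjusted p under 0.05. Of the 21, 6 lay entirely above wild type and 3 entirely below, against 17.5% and 10.6% of all genes, with a median difference of 0.046, against 0.033 over all genes. CNNM4, a basolateral CNNM transporter, was at 12.0 and 14.0 FPKM in wild type against 11.8 and 11.4 in clone 1 and 9.08 and 8.91 in clone 2 (-0.31 ± 0.14, limma adjusted p = 0.231). The nearest to the threshold were NIPAL1, a magnesium transporter (0.42 ± 0.086, limma adjusted p = 0.0514), and TRPM6, the apical magnesium channel of the distal nephron. TRPM6 was at 3.07 and 2.41 FPKM in wild type against 2.19 and 1.55 in clone 1 and 1.74 and 1.30 in clone 2 (-0.48 ± 0.10, limma adjusted p = 0.0544).

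The remaining genes are described by lists, each beside the share over all genes, which was 5.39% higher and 2.37% lower. Several keratin genes were higher. Of 13 tested keratin and intermediate filament genes 4 were higher and 0 lower, with a median of 0.31. KRT8, which pairs with KRT18 in simple epithelia, was at 523 and 518 FPKM in wild type against 746 and 703 in clone 1 and 812 and 857 in clone 2 (0.58 ± 0.092, limma adjusted p = 0.0314). KRT18 was at 190.4 and 174 FPKM in wild type against 326 and 266 in clone 1 and 423 and 357 in clone 2 (0.89 ± 0.16, limma adjusted p = 0.0375). KRT7, a keratin of ducts, was at 295 and 319.9 FPKM in wild type against 471 and 468 in clone 1 and 474 and 435 in clone 2. KRT80 was higher by 0.88 ± 0.10. The 4 clone libraries lay above both wild-type libraries in 6 of the 13 and below them in 0, against 17.5% and 10.6% of all genes.

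Of 21 genes of cadherins and desmosomes 1 was higher and 1 lower. The higher one was CDH1, which encodes E-cadherin, the adhesion molecule of epithelia, at 95.9 and 84.7 FPKM in wild type against 141 and 125 in clone 1 and 158 and 143 in clone 2 (0.65 ± 0.078, limma adjusted p = 0.0215). The lower one was CDH17, the liver-intestine cadherin, at 46.0 and 57.2 FPKM in wild type against 19.9 and 30.5 in clone 1 and 27.1 and 39.4 in clone 2 (-0.83 ± 0.16, limma adjusted p = 0.0457). In the list of tight junction and polarity genes 1 of 22 was higher and 1 lower. CLDN1, a sealing claudin, was higher (0.66 ± 0.10, limma adjusted p = 0.0312) and PATJ, a polarity scaffold, lower (-0.22 ± 0.043, limma adjusted p = 0.0469). Both counts are near the background.

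Of 29 collagen, laminin and other matrix genes 4 were higher and 1 lower (13.8% higher, median 0.20). The count was 4 higher and 1 lower of 20 metalloproteinases, plasminogen activators and inhibitors (20% higher, median 0.16). Of the 29 matrix genes 9 lay entirely above wild type and 5 entirely below, and of the 20 it was 4 and 2. Over all genes it was 17.5% and 10.6%. COL4A2, a chain of basement membrane collagen, was at 18.7 and 20.2 FPKM in wild type against 47.1 and 39.7 in clone 1 and 70.0 and 59.9 in clone 2 (1.40 ± 0.23, limma adjusted p = 0.0332). COL5A1, a fibrillar collagen chain, was at 7.56 and 7.18 FPKM in wild type against 16.3 and 13.7 in clone 1 and 23.6 and 19.2 in clone 2. THBS1, which encodes thrombospondin-1, was at 36.3 and 24.1 FPKM in wild type against 89.7 and 49.2 in clone 1 and 139 and 48.0 in clone 2. Clone libraries were above both wild-type libraries in these collagens and in THBS1. BGN, the proteoglycan biglycan, was the member that was lower, at 8.54 and 10.8 FPKM in wild type against 2.13 and 2.36 in clone 1 and 3.18 and 4.96 in clone 2 (-1.40 ± 0.25, limma adjusted p = 0.0384). The tissue inhibitors of metalloproteinases diverged. TIMP1 was at 188 and 173 FPKM in wild type against 88.9 and 95.3 in clone 1 and 68.6 and 73.4 in clone 2 (-1.15 ± 0.15, limma adjusted p = 0.0236). TIMP3, which stays bound to the matrix, was higher, at 32.2 and 14.2 FPKM in wild type against 58.5 and 28.3 in clone 1 and 65.9 and 29.9 in clone 2 (0.96 ± 0.066, limma adjusted p = 0.0145, and 0.0408 with the line as a random block). TIMP4 was higher as well (0.71 ± 0.12, limma adjusted p = 0.0335). TIMP3 ranges overlapped between genotypes, since values were lower in the PRL1 siRNA library of each line, while each clone library was above the wild-type library of its own siRNA.

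Of 12 integrin genes 2 were higher and 1 lower. ITGB6, the epithelial partner that forms a receptor activating latent TGF-beta, was at 46.8 and 40.8 FPKM in wild type against 82.3 and 91.5 in clone 1 and 114 and 145 in clone 2 (1.26 ± 0.24, limma adjusted p = 0.0429). ITGB1, the common beta chain, was higher by 0.35 ± 0.046, and ITGA2, a collagen receptor chain, was lower (-0.36 ± 0.060, limma adjusted p = 0.0343). In the mesenchymal list 11 of 24 genes were tested. Of these 11, 3 were higher and 0 lower, with a median of -0.036. Among them were TPM1, a tropomyosin (0.48 ± 0.042, limma adjusted p = 0.0155), and TAGLN, an actin-binding protein of smooth muscle. TAGLN was at 0.101 and 0.0930 FPKM in wild type against 1.23 and 3.50 in clone 1 and 3.36 and 6.93 in clone 2 (1.98 ± 0.40, limma adjusted p = 0.0490). TAGLN reached the filter only through the clones, so it was tested only because of the group in which it was high. With the line as a random block it did not pass (limma adjusted p = 0.129). FN1, the fibronectin gene of the same list, was at 89.2 and 67.3 FPKM in wild type against 61.2 and 44.2 in clone 1 and 40.1 and 48.1 in clone 2. It did not pass (-0.69 ± 0.18, limma adjusted p = 0.0779).

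Of 23 tested genes of the YAP and TAZ list 4 were higher and 0 lower (17.4% higher, median 0.20). They were NUAK2, described above, TEAD3, a DNA-binding partner of YAP (0.54 ± 0.069, limma adjusted p = 0.0230), TGFB2, a TGF-beta ligand (0.98 ± 0.19, limma adjusted p = 0.0470), and the tissue factor gene F3. F3 was at 87.1 and 41.7 FPKM in wild type against 251 and 78.1 in clone 1 and 293 and 120.3 in clone 2 (1.41 ± 0.20, limma adjusted p = 0.0266). For F3 the PRL1 siRNA library of each line was below its control library, so the ranges of the genotypes overlapped.

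Several genes of antigen presentation were higher. The MHC class I and II list also holds genes of peptide processing and transport. Of its 23 tested genes 5 were higher and 0 lower (21.7% higher, median 0.49), with PSMB9, PSMB8 and TAP1 among the 5. Of the 23, 9 lay above wild type in all clone libraries, against 17.5% of all genes. PSMB9, a subunit of the immunoproteasome, which cuts peptides for presentation, was at 28.1 and 35.2 FPKM in wild type against 46.8 and 80.2 in clone 1 and 49.8 and 76.8 in clone 2 (0.95 ± 0.095, limma adjusted p = 0.0176). PSMB8, a further subunit, was at 3.48 and 4.33 FPKM in wild type against 6.61 and 10.7 in clone 1 and 9.15 and 12.7 in clone 2 (1.11 ± 0.15, limma adjusted p = 0.0238). TAP1, a subunit of the peptide transporter, was at 22.9 and 25.5 FPKM in wild type against 29.7 and 40.6 in clone 1 and 34.1 and 45.3 in clone 2 (0.59 ± 0.098, limma adjusted p = 0.0333). The class I gene DLA-64, whose relatives could share fragments, was higher by 0.60 ± 0.063. Of 33 interferon-stimulated genes 0 passed the limma fit and 5 had an unadjusted p under 0.05, with a median of 0.067. GBP1, a guanylate-binding protein, came nearest at 0.243 and 1.14 FPKM in wild type against 0.657 and 4.45 in clone 1 and 2.47 and 6.87 in clone 2 (1.28 ± 0.35, limma adjusted p = 0.0894).

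Of 31 tested NF-κB targets and chemokines 6 were higher and 1 lower (19.4% higher, median 0.37). Of the 31, 5 lay entirely above wild type and 2 entirely below, against 17.5% and 10.6% of all genes. Besides CCL2, BIRC3 and the lower PTGS2, the chemokine gene CXCL16 was at 63.8 and 105 FPKM in wild type against 87.7 and 157 in clone 1 and 97.0 and 154 in clone 2 (0.55 ± 0.056, limma adjusted p = 0.0179). For CXCL16 the clone control libraries lay below the wild-type PRL1 siRNA library, so the ranges overlapped, while at each siRNA the clones were above wild type.

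Lists of glycolysis and of stress had medians below 0. Of 34 genes of glycolysis and hypoxia 0 were higher and 4 lower (11.8%), with a median of -0.21, and 13 of the 34 lay entirely below wild type against 10.6% of all genes. PFKFB3, the kinase that makes the activator of glycolytic phosphofructokinase, was at 114 and 138 FPKM in wild type against 46.0 and 50.1 in clone 1 and 63.5 and 48.7 in clone 2 (-1.26 ± 0.16, limma adjusted p = 0.0222). GPI, a glycolytic isomerase, was at 233 and 277 FPKM in wild type against 181 and 202 in clone 1 and 177 and 181 in clone 2. BNIP3 and BNIP3L, receptors of mitophagy induced in hypoxia, were lower too (-0.83 ± 0.14, limma adjusted p = 0.0349, and -0.51 ± 0.065, limma adjusted p = 0.0230). In the integrated stress and unfolded protein response 1 of 39 genes was lower, ATF5 (-0.54 ± 0.11, limma adjusted p = 0.0489), and 0 were higher, with a median of -0.13. That count is near the share over all genes, and after median-of-ratios rescaling 0 of the list were lower. Of the 39, 2 lay entirely above wild type and 3 entirely below, against 17.5% and 10.6% of all genes. DDIT3, which encodes CHOP, was at 54.3 and 13.3 FPKM in wild type against 38.8 and 5.52 in clone 1 and 23.1 and 5.10 in clone 2. It did not pass (-1.01 ± 0.21, limma adjusted p = 0.0530).

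Transport genes of the kidney tubule gave 1 higher and 3 lower of 18 (16.7% lower, median -0.17). Among the lower ones were KCNJ16, described above, and CA2. CA2, carbonic anhydrase II, was at 2974 and 2143 FPKM in wild type against 2376 and 1608 in clone 1 and 2111 and 1559 in clone 2 (-0.42 ± 0.065, limma adjusted p = 0.0302). SLC4A7, a sodium bicarbonate transporter, was higher (0.69 ± 0.11, limma adjusted p = 0.0314). Only 18 of the 46 genes found in the files reached the filter, and 11 were listed at 0 in all libraries, AQP2 and CALB1 among them. Of 25 kidney transcription factors 1 was higher and 2 lower. TFCP2L1, a factor of the collecting duct, was at 13.2 and 10.6 FPKM in wild type against 34.9 and 25.5 in clone 1 and 27.5 and 23.3 in clone 2 (1.15 ± 0.10, limma adjusted p = 0.0155). EHF, an epithelial ETS factor, was lower (-0.50 ± 0.078, limma adjusted p = 0.0305), as was IRX2, which reached the filter only through wild type.

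Of 26 genes of iron, copper and zinc 1 was higher and 3 lower (11.5% lower, median -0.069). With HEPH, the transferrin receptor gene TFRC, through which cells take up iron, was lower, at 64.3 and 64.2 FPKM in wild type against 51.3 and 50.7 in clone 1 and 47.9 and 43.2 in clone 2 (-0.41 ± 0.079, limma adjusted p = 0.0441). So was the zinc exporter gene SLC30A1 (-0.34 ± 0.068, limma adjusted p = 0.0476). CYBRD1, an iron reductase, was higher, at 14.0 and 9.45 FPKM in wild type against 24.5 and 17.7 in clone 1 and 20.4 and 14.5 in clone 2 (0.67 ± 0.11, limma adjusted p = 0.0318).

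Part of the cytosolic ribosomal protein genes were slightly higher. Of 44 in the list 10 were higher and 0 lower (22.7%), with a median of 0.20, and 22 lay entirely above wild type against 17.5% of all genes. After median-of-ratios rescaling the list median was again 0.20. Summed over all symbols, FPKM was 437298 and 437333 in wild type and 463211 to 474719 in the clone libraries. The part of that shift in small differences such as these was not tested. RPL35 was at 804 and 757 FPKM in wild type against 1082 and 999 in clone 1 and 1092 and 994 in clone 2 (0.42 ± 0.044, limma adjusted p = 0.0179). In the list of growth factors and ERK feedback 2 of 35 were higher and 2 lower. MYC, a transcription factor that drives growth, was at 32.9 and 21.3 FPKM in wild type against 50.7 and 35.1 in clone 1 and 64.2 and 45.2 in clone 2 (0.82 ± 0.14, limma adjusted p = 0.0343). DUSP10, a phosphatase of stress kinases, was higher too (0.68 ± 0.088, limma adjusted p = 0.0230). EGF was at 20.01 and 21.6 FPKM in wild type against 13.7 and 13.3 in clone 1 and 11.6 and 10.99 in clone 2 (-0.71 ± 0.11, limma adjusted p = 0.0289). Its receptor family member ERBB3 was lower (-0.45 ± 0.048, limma adjusted p = 0.0181).

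Among redox genes 3 of 33 were higher and 0 lower. TXN, which encodes thioredoxin, was at 769 and 653 FPKM in wild type against 1032 and 853 in clone 1 and 1038 and 853 in clone 2 (0.41 ± 0.043, limma adjusted p = 0.0181). Its reductase TXNRD1 was higher by 0.40 ± 0.056, and KEAP1, the sensor that restrains NRF2, by 0.24 ± 0.043. Of 32 p53 targets and apoptosis genes 1 was higher, the initiator caspase gene CASP8 (0.33 ± 0.063, limma adjusted p = 0.0447). The 1 lower was BMF, a pro-apoptotic BH3 protein, at 2.98 and 4.45 FPKM in wild type against 1.17 and 2.04 in clone 1 and 1.33 and 2.52 in clone 2 (-0.78 ± 0.096, limma adjusted p = 0.0223). Of the cell cycle genes, 0 of 39 in S phase passed the limma fit (7 at an unadjusted p under 0.05) and 1 of 39 G2 and mitosis genes, DLGAP5 (0.35 ± 0.062, limma adjusted p = 0.0364), with medians of 0.12 and 0.072. Counts were near the background for WNT (2 higher and 1 lower of 22, FZD5 being the lower one, FZD6 and WNT7B the higher ones), TGF-beta and BMP (2 and 0 of 35), cholesterol and fatty acid synthesis (1 and 1 of 34), lysosome (1 and 2 of 38) and Notch genes (1 and 0 of 11, the ligand gene JAG2). By limma they were 0 of 33 for the respiratory chain and 0 of 42 for the primary cilium (2 and 6 at an unadjusted p under 0.05).

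**Figure D4:**
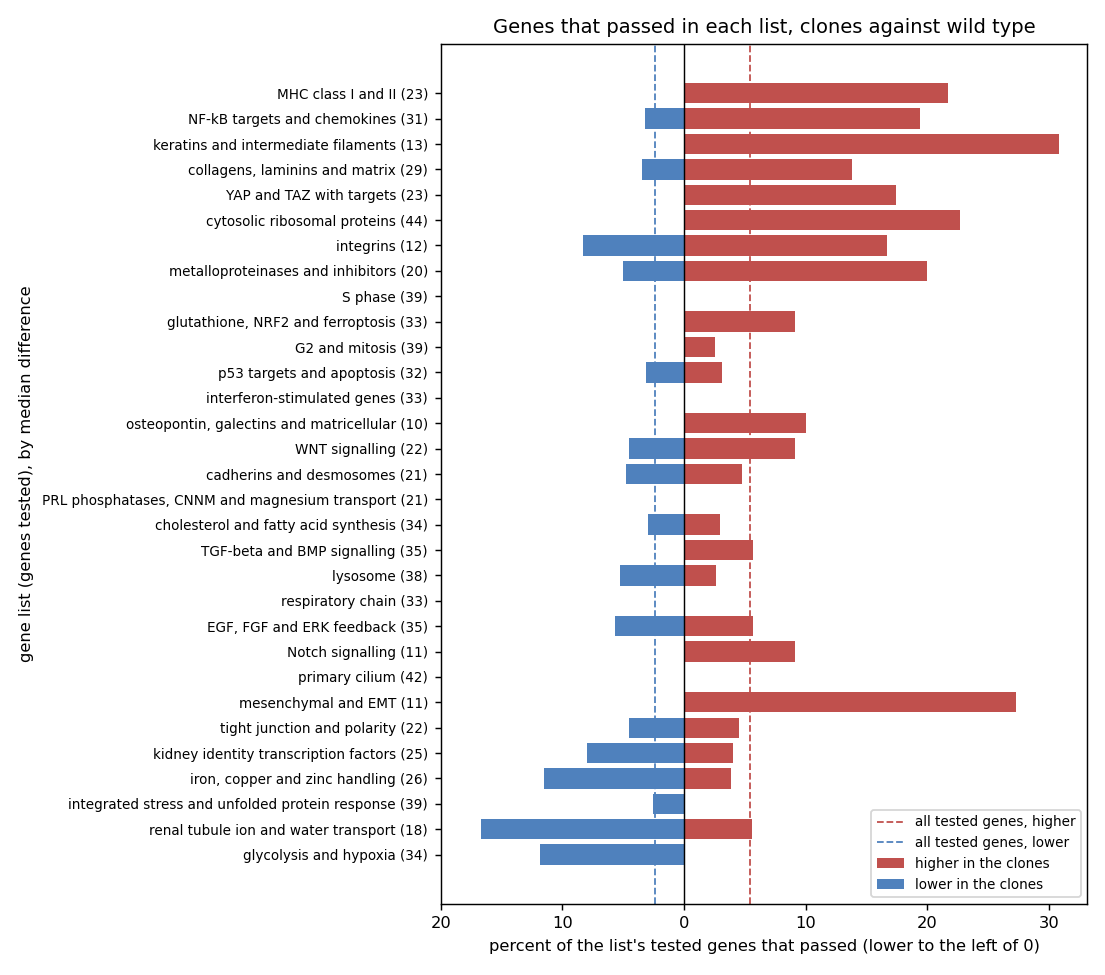
Share of each list's tested genes that were higher (red, to the right) or lower (blue, to the left) in the clones, in percent, for lists with at least 10 tested genes, ordered by median difference with the number tested in brackets; dashed lines give the shares over all genes, 5.39% and 2.37%. Keratin, mesenchymal, ribosomal protein, MHC and protease lists reach 20% or more on the higher side. The mesenchymal share counts TAGLN, which reached the filter only through the clones.

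Markers of the kidney epithelium were present in every library. All 12 passed the filter, among them the kidney transcription factor gene PAX8 at 48.4 and 78.1 FPKM in wild type against 51.8 and 73.0 in clone 1 and 42.9 and 62.8 in clone 2 (-0.12 ± 0.11, limma adjusted p = 0.507). Of the 12, 4 were higher in the clones (KRT7, KRT8, KRT18 and CDH1, given and counted above) and 0 lower. That is 33.3% higher, against 5.39% of all genes. Of the 12, 5 lay entirely above wild type and 1 entirely below, against 17.5% and 10.6% of all genes. Of other cell types, PTPRC, the pan-leukocyte marker, was at 0 in all libraries, as were 5 others of the 15 leukocyte markers. The summed level of the 15 leukocyte markers was 8.13 to 9.20 FPKM in wild type and 7.37 to 9.49 in the clones. That of the 11 endothelial markers was 7.08 to 7.26 FPKM in wild type and 16.4 to 25.1 in the clones. Most of it was FLT1: the defining endothelial markers PECAM1 and CDH5 did not exceed 0.0602 and 0.0368 FPKM in any library. The 13 fibroblast and smooth muscle markers summed to 0.443 to 0.804 FPKM in wild type and 0.449 to 4.50 in the clones, with LUM, THY1 and PDPN at 0. The 1 tested was ACTA2, smooth muscle actin, at 0.201 and 0.363 FPKM in wild type against 0.275 and 1.76 in clone 1 and 1.60 and 3.93 in clone 2. It did not pass (1.02 ± 0.41, limma adjusted p = 0.178). Neuronal and germline markers summed to 9.51 to 10.4 FPKM in wild type and 14.0 to 16.8 in the clones. The member that passed was MAP2, a microtubule protein (0.70 ± 0.077, limma adjusted p = 0.0185). The part of these markers in other results was not tested. In bulk RNA, fewer cells that express a gene and less RNA per cell cannot be told apart.

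The genotype difference was not shown to depend on the siRNA. In a model with an interaction of genotype and siRNA, limma called 0 genes (smallest adjusted p = 0.474, 136 genes at an unadjusted p under 0.05), a test with 2 residual degrees of freedom. It called 157 with no filter on low values and 4 without an intensity trend. For example, CCL2 differed from wild type by 1.78 and 2.57 in clone 1 and by 2.01 and 2.01 in clone 2. HEPH differed by -3.98 and -3.68 in clone 1 and by -4.49 and -3.95 in clone 2. The 2 clones differed from one another in 1760 genes (14.5%, limma with line and siRNA as terms), and 62 of the 940 genes called between genotypes were among them. The genotype fit counts a difference between the clones as residual spread, so it favours genes on which the clones agree. The overlap therefore does not measure agreement between the clones. With no filter on low values the clones differed in 4 genes. SPP1 was higher in clone 2 than in clone 1 (clone 1 minus clone 2 -0.87, limma adjusted p = 0.00574), as was SPINK5 (-0.77, 0.00281).

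The differences were also read along the order of genes in the RefSeq annotation. Over 10917 windows of 25 neighbouring tested genes, the window median lay between -0.14 and 0.26 for clone 1 with control siRNA, -0.20 and 0.24 for clone 1 with PRL1 siRNA, -0.22 and 0.30 for clone 2 with control siRNA, and -0.32 and 0.30 for clone 2 with PRL1 siRNA. The siRNA effect within wild type, a comparison within 1 line, spanned -0.23 to 0.26 in the same windows. Among the 20 nearest tested genes around PTP4A1, 3 were higher and 0 lower, with a median of 0.037. Around PTP4A2, 3 were higher and 2 lower, with a median of 0.067. Over all genes 5.39% were higher and 2.37% lower, with a median of 0.033. The order comes from an assembly that may differ from the one used by the authors.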

How the data were processed

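RNA-seq libraries of 6 MDCK samples were made with a stranded mRNA kit, per the labels' protocols. The authors deposited FPKM values, a single one per symbol in each library. Tools named in the submitters' processing notes are HISAT2 2.1.0, Cufflinks 2.2.1 and Cuffdiff. The genome build, annotation and strand setting were not given in the sources used here. Overlapping, antisense and near-identical genes may share fragments. Of 41401 symbols, 38797 matched RefSeq names of UU_Cfam_GSD_1.0, used for names and gene order only.

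Genotype was tested with limma 3.58.1 (R 4.3.3) applied to log2(FPKM + 1), with siRNA as covariate, moderated variances with an intensity trend and Benjamini-Hochberg adjustment (3 residual degrees of freedom, prior 2.33). Genes had a mean of at least 1 FPKM. Clone numbers pair libraries, because a number marks 1 clone (correlation of deviations across genes 0.595), and genotype lies between lines, so the block was a random line effect (correlation 0.52). In low values (below 0.1 FPKM) 24.3% to 27.3% of ratios to the wild-type control library matched a ratio of small whole numbers to within 0.01 (log2), compared with 1.91% to 2.08% off that grid, which gave relative depth; no counts were rebuilt. The procedure was also run on simulated data, whose outcome is not given here and carries no weight for the calls.

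Genes named were the PRL and CNNM genes, the 15 called genes per direction with the largest weakest difference and at least 5 FPKM in the higher group, the most abundant genes, up to 4 members of each of 35 lists, and up to 5 genes per direction listed at 0 in 1 genotype. Some genes that the rule names are not reported here; they stayed in every fit and count. Members and lists were chosen with earlier results of these data known. Alternatives covered the pseudocount, the filter, scaling, variance model, unit of replication, siRNA, clone and each library.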

Additional observations from a re-analysis of the deposited data

Results flagged for a closer look

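Of the named genes that passed, or that belong to the PRL and CNNM genes, 23 differed between the 2 clones, 9 with higher values in clone 1 and 14 in clone 2. The difference was tested with limma, with line and siRNA as terms, and is given as clone 1 minus clone 2 on the log2(FPKM + 1) scale. Both clones are set against the same wild-type libraries, so the difference of their effects is the difference between the clones.

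Higher in clone 1 were WDR72 (0.89), PFN2 (0.62), PTP4A2 (0.50), IDO2 (0.47), TIMP1 (0.37), FBP2 (0.34), CNNM4 (0.34), CYBRD1 (0.26) and CLDN1 (0.24), with limma adjusted p from 0.00192 to 0.0497. PTP4A2, the gene of the missing phosphatase PRL2, was the only one of these with the clones on opposite sides of wild type.

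Higher in clone 2 were the secreted and matrix genes SPP1 (-0.87), SPINK5 (-0.77), BGN (-0.62), COL4A2 (-0.57), TGFB2 (-0.49), COL5A1 (-0.48) and HTRA1 (-0.32). So were the surface genes ADAM28 (-0.66), ITGB6 (-0.56), FLT1 (-0.56), CDH17 (-0.39) and CDH1 (-0.18), and KRT18 (-0.40) and MYC (-0.35). Limma adjusted p ran from 0.00281 for SPINK5 to 0.0395 for CDH1.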

How the results depend on the processing

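The count of 940 genes was 957 with a pseudocount of 0.1, 939 with 5, 925 when the mean had to reach 5 FPKM, 947 after median-of-ratios rescaling, 957 with robust moderation and 747 without an intensity trend. It was 372 with no filter, 16 in the fit with the replicate block (line as random effect), and 0 with 1 mean per line, with control siRNA only (smallest adjusted p = 0.311, 1153 genes at an unadjusted p under 0.05) or with PRL1 siRNA only (0.351 and 1167). It was 2150 with clone 1 only and 2612 with clone 2 only, fits with 1 line per genotype. Leaving out 1 library gave 0 to 181. The 16 genes of the blocked fit were all among the 940. Of 93 named genes that passed, 79 kept the call without an intensity trend, 90 with robust moderation, 26 with no filter and 8 with the replicate block. None reversed under any alternative run, but a reversal could hardly occur. All 940 called genes had 1 sign in all 4 differences, and the alternatives average the same differences or some of them.

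Genes at least 2-fold apart in all 4 differences numbered 53. They were 102 with a pseudocount of 0.1, 14 with 5, 199 at 1.5-fold, 4 at 4-fold, 35 when the mean had to reach 5 FPKM, 57 with no filter and 60 to 73 without 1 clone library. The interaction count of 0 became 157 with no filter and 4 without an intensity trend. The clone difference of 1760 genes became 4 with no filter. These alternatives for the last 2 counts were chosen after seeing the data. Where a count moved, the cause was not tested. The number of fragments is unknown, so counting error at low FPKM could not be given.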

Other observations

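Many genes of ribosome assembly and mitochondrial import were higher in the clones. The families were taken by symbol prefix after their values were seen, so counts are a description with no test. Of 42 tested genes whose symbols start with UTP, NOP, NOL, RRP or POLR1, most of them nucleolar proteins or subunits of RNA polymerase I, 18 were higher (42.9%, against 5.39% of all genes) and 0 lower, with a median of 0.24. NOP56, a scaffold of box C/D ribonucleoproteins, was at 37.8 and 26.02 FPKM in wild type against 50.2 and 38.6 in clone 1 and 50.2 and 37.5 in clone 2 (0.47 ± 0.051, limma adjusted p = 0.0185). NOP2, an rRNA methyltransferase, was at 19.7 and 15.5 FPKM in wild type against 26.6 and 21.8 in clone 1 and 27.4 and 22.4 in clone 2 (0.46 ± 0.047, limma adjusted p = 0.0177). POLR1G, a subunit of RNA polymerase I, was higher by 0.63 ± 0.055. Of 22 mitochondrial import genes (TIMM and TOMM symbols) 8 were higher (36.4%) and 0 lower, among them TIMM50, a receptor of the inner membrane translocase (0.56 ± 0.047, limma adjusted p = 0.0155). Mitochondrial ribosomal proteins gave 8 higher and 0 lower of 76 (10.5%, median 0.13), proteasome subunits 5 and 0 of 37 (13.5%, median 0.15, including PSMB8 and PSMB9), and all 72 cytosolic ribosomal protein symbols 13 and 0 (18.1%, median 0.20).

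Besides the genes named above, the fit with the line as a random block called 8 genes, 3 of them unnamed loci. CCND1, which encodes the G1 cyclin D1, was at 18.2 and 14.5 FPKM in wild type against 33.3 and 29.97 in clone 1 and 32.4 and 28.5 in clone 2 (0.89 ± 0.057, limma adjusted p = 0.0123). ECE1, the protease that activates endothelin, was at 18.9 and 21.3 FPKM in wild type against 34.0 and 36.1 in clone 1 and 35.7 and 36.3 in clone 2 (0.79 ± 0.051, limma adjusted p = 0.0123). PGAP2, an enzyme of GPI anchor remodelling, was at 24.7 and 28.3 FPKM in wild type against 50.5 and 55.0 in clone 1 and 49.2 and 53.2 in clone 2 (0.95 ± 0.047, limma adjusted p = 0.00599). SOX4, a transcription factor of progenitor cells, was at 8.05 and 8.98 FPKM in wild type against 3.25 and 3.56 in clone 1 and 3.59 and 3.64 in clone 2 (-1.08 ± 0.066, limma adjusted p = 0.0123). PPP1R3C, which targets protein phosphatase 1 to glycogen, was at 14.0 and 22.01 FPKM in wild type against 7.15 and 10.1 in clone 1 and 6.92 and 10.6 in clone 2 (-0.96 ± 0.056, limma adjusted p = 0.0117). The adjusted p in brackets after these genes come from the fit without that block. They were named after the values of the genes were seen.

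Genes listed at 0 in every library of 1 genotype were low in the other. Leading by mean level were LCE6A, listed at 0 in wild type, and LYZ, listed at 0 in all clone libraries. LCE6A was at 0.557 and 0.413 FPKM in clone 2 but at 0 and 0.0495 in clone 1, so its level rested mostly on clone 2. LYZ reached 0.117 FPKM in wild type with control siRNA.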
